A study of Drosophila melanogaster with 6 samples.

Results

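The genes described here are the CD36-type scavenger receptors of *Drosophila melanogaster*: *pes*, *emp*, *crq*, *ninaD*, *Snmp1*, *Snmp2*, *santa-maria*, *CG3829* and *CG10345*. They were taken by their FlyBase symbol and are 9 of the 16455 genes in the files. The family was selected on the TPM of *pes*, which differed between the groups of libraries, so the difference of *pes* is given as a description with no test. The other members were taken as its relatives. A further 5 genes of the same family, *CG7227*, *CG40006*, *CG2736*, *dsb* and *CG31741*, are given beside them, which makes 14 family genes in all.

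CD36-type receptors are membrane proteins anchored at both ends, with a large loop outside the cell or inside a vesicle. The loop binds lipids, lipoproteins, pheromones, carotenoids, bacteria or dying cells, and the receptors hand the ligand to the membrane or take it into the cell. In the fly, Croquemort, encoded by *crq*, is known from macrophages that engulf apoptotic cells, and Peste, encoded by *pes*, from the uptake of mycobacteria by cultured phagocytes. NinaD and Santa-maria take up carotenoids for the synthesis of visual pigment, and Snmp1 serves the detection of a pheromone in olfactory neurons. Wing discs are larval epithelia in which dying cells are cleared and replaced after damage.

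The data are RNA-seq of wing discs of L3 larvae, the last larval stage, with 3 libraries labelled *CR40469* mutant and 3 labelled control. The larvae of both groups carried *salE/Pv-LHG*, *tub-Gal80TS* and *lexO-rpr*, and *rpr*, a gene that induces apoptosis, was expressed for 16 h. The *salE/Pv* enhancer drives it in the central part of the disc, and each library pools discs of several larvae. The mutant larvae were in addition homozygous for *CR40469-KO*, in which the lncRNA *CR40469* is replaced by an *mCherry* cassette. Values are TPM, relative transcript abundances that are scaled per length and to an equal total in each library, and they do not carry the sequencing depth. The study describes the 3 libraries of a label as biological replicates.

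The deleted gene went against the labels. *CR40469* had 535.93, 389.21 and 293.78 TPM in the mutant-labelled libraries, against 99.61, 46.44 and 82.52 TPM in the control-labelled ones. The lncRNA *CR34335*, which contains a near-identical copy of it, had 1938.29, 1928.63 and 1902.09 TPM in the mutant-labelled libraries, against 3521.64, 2442.97 and 3201.91 TPM in the control-labelled ones. How the quantification divided reads between *CR40469* and *CR34335* in these libraries was not tested. Each direction below is that of the labels. *rpr* was present in all libraries, at 144.06, 189.81 and 164.11 TPM in the mutant-labelled libraries, against 132.26, 122.67 and 143.52 TPM in the control-labelled ones. All 8 wing disc genes examined, such as the pouch gene *nub* and the dorsal selector *ap*, were present, at 6.85 to 169.70 TPM. The libraries labelled mutant replicate 1 and control replicate 2 stood apart from the others. They were the 2 highest libraries for 3106 of 8051 tested genes (38.6%), more than any other pair of libraries. The fits of log2 fold changes below were therefore also computed without both. Levels, ranks, shares, overlaps between the labels and correlations were computed on all libraries only. Over all tested genes the log2 fold changes had a median of 0.13, or 0.0003 after scaling each library by its median ratio, so differences near 0 are to be read against this shift.

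The family split into 3 levels, from the strongly expressed *emp* and *crq*, through *pes*, *CG40006*, *Snmp2* and *CG3829*, to 8 genes close to 0. The limit for testing, 1 TPM in any of the libraries, was reached by 4 of the 9 receptors (*pes*, *emp*, *crq* and *Snmp2*) and by *CG40006* among the other 5 family genes. *pes* passed this limit only through the libraries labelled mutant. Over the 6 libraries, *emp* averaged 99.4 TPM and *crq* 26.8 TPM, and *emp* was above *crq* in 6 of 6 libraries with no overlap of their ranges. *emp* and *crq* together made up between 89.8 and 93.1% of the summed TPM of the 14 genes in the mutant-labelled libraries. In the control-labelled ones *emp* and *crq* made up between 95.7 and 96.1%. These sums include *pes*, the gene chosen for its difference, so the gap between the labels is no result about *emp* and *crq*.

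**Figure D1:**
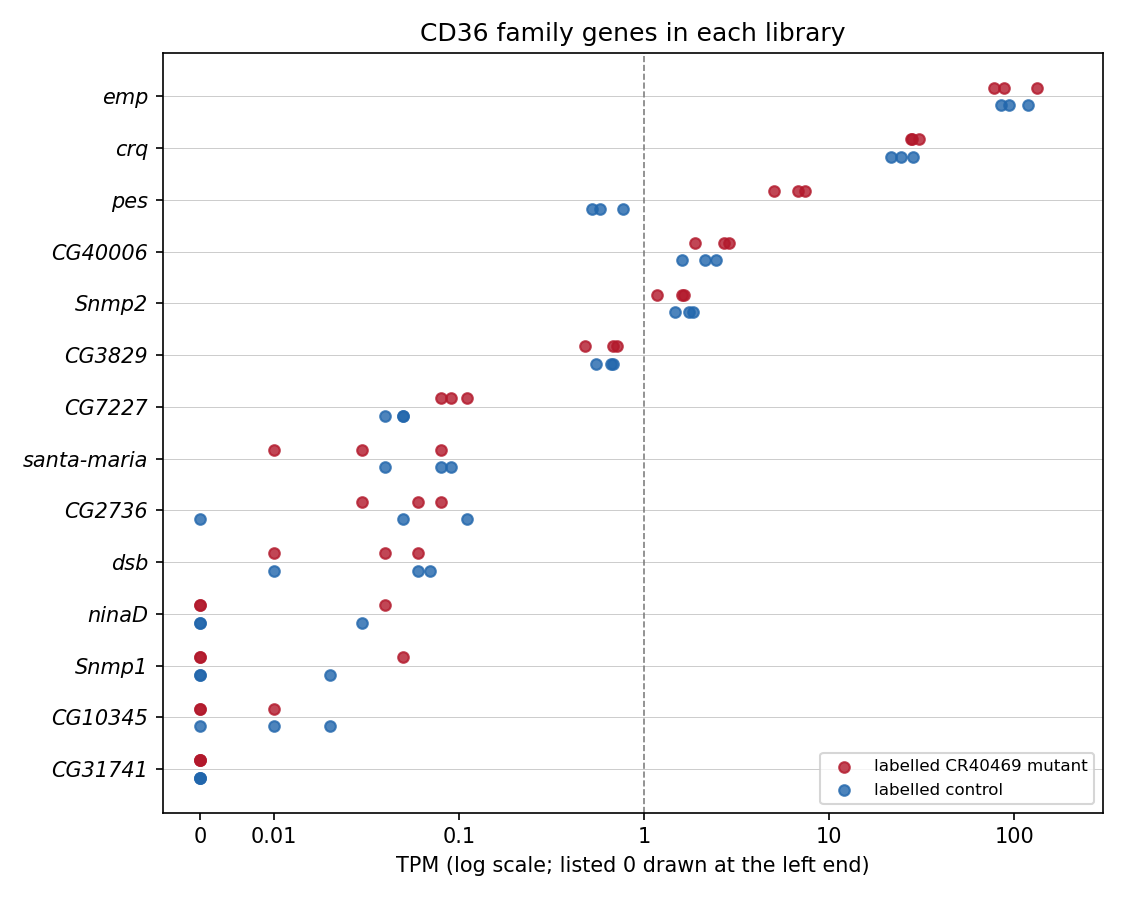
TPM of the 14 CD36 family genes in each library, on a log scale, with 1 point per library (upper row of each gene, labelled *CR40469* mutant; lower row, labelled control) and the dashed line at 1 TPM. *pes* lies at 5.05 to 7.45 TPM in the mutant-labelled libraries and at 0.52 to 0.77 TPM in the control-labelled ones, while the points of *emp*, *crq*, *CG40006*, *Snmp2* and *CG3829* overlap between the labels.

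*pes* (FBgn0031969) lies on chromosome 2L of dm6 from 7986786 to 7994184 on the minus strand, with 6 annotated transcripts of 2 to 5 exons. Its transcripts encode proteins of 555 or 87 amino acids, and TPM per gene do not tell which of them was made. *pes* had 7.45, 6.77 and 5.05 TPM in the mutant-labelled replicates 1, 2 and 3, against 0.52, 0.77 and 0.58 TPM in the control-labelled ones. The 3 libraries labelled mutant were all above the 3 labelled control, and the lowest of them was 6.56 times the highest control value. The means were 6.42 ± 1.24 TPM in the mutant-labelled libraries and 0.623 ± 0.131 TPM in the control-labelled ones (SD, n = 3 each), a ratio of 10.3. On the log2(TPM + 1) scale, which understates the change of low genes, the log2 fold change was 2.18, and with a pseudocount of 0.1 it was 3.17. Without the libraries that stood apart it was 2.15.

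In terms of abundance, *pes* ranked 6729 of 16455 genes by mean TPM in the mutant-labelled libraries and 7963 in the control-labelled ones. Its place within the family also differed. The ranks, this place and the share below restate the TPM by which *pes* was chosen and are no further result. In the libraries labelled mutant, *pes* was above *CG40006*, *Snmp2* and *CG3829* in 3 of 3 libraries. In the libraries labelled control, it was above *CG40006* and *Snmp2* in 0 of 3 and above *CG3829* in 1 of 3, with ranges that overlapped those of *CG3829*. *crq* stayed above *pes* in 6 of 6 libraries. The share of *pes* in the summed TPM of the 14 genes was 4.65 ± 0.861% in the mutant-labelled libraries and 0.480 ± 0.0398% in the control-labelled ones (SD, n = 3 each).

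Among all 8051 tested genes, 18 (0.224%) were called. A call needed an adjusted p under 0.05 (limma, Benjamini-Hochberg adjustment) and a fold change over 1.7 in either direction. Of the 18, 12 were higher (0.149%) and 6 lower (0.0745%) in the mutant-labelled libraries. *CR40469*, the deleted gene, was among the 12 that were higher (log2 fold change 2.43, limma adjusted p = 0.0280). Of the 4 tested receptors, 1 passed both thresholds, and it was *pes*, which had been chosen for this difference, so the count carries no weight as a result. None of *emp*, *crq*, *Snmp2* and *CG40006* passed, in the fit of all libraries or in any of the 15 alternatives that tested them. None of these 4 genes had an unadjusted p under 0.05 in limma, which 388 of all tested genes (4.82%) had, 244 of them higher (3.03%) and 144 lower (1.79%) in the mutant-labelled libraries.

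*emp* (FBgn0010435, chromosome 2R, 24976456 to 24986070, minus strand) encodes an epithelial membrane protein and was the most abundant receptor. It had 133.29, 77.47 and 88.29 TPM in the mutant-labelled libraries, against 84.37, 119.00 and 93.94 TPM in the control-labelled ones. The labels overlapped, and the highest values were those of mutant replicate 1 and control replicate 2, the libraries that stood apart. The means were 99.7 ± 29.6 TPM in the mutant-labelled libraries and 99.1 ± 17.9 TPM in the control-labelled ones (SD, n = 3 each). The log2 fold change was -0.02 (SE 0.23, limma adjusted p = 0.978). The 95% confidence interval of the fold of TPM + 1 reached from 0.685 to 1.43, and folds within these bounds are not excluded.

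*crq* (FBgn0015924, chromosome 2L, 448254 to 453024, minus strand), the receptor for apoptotic cells, had 28.21, 30.59 and 27.79 TPM in the mutant-labelled libraries, against 24.34, 21.60 and 28.23 TPM in the control-labelled ones. The labels overlapped through control replicate 3 alone, which was above mutant replicates 1 and 3. The means were 28.9 ± 1.51 TPM in the mutant-labelled libraries and 24.7 ± 3.33 TPM in the control-labelled ones (SD, n = 3 each). The log2 fold change was 0.22 (SE 0.15, limma adjusted p = 0.818), and the 95% confidence interval of the fold of TPM + 1 reached from 0.921 to 1.48.

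*Snmp2* (FBgn0035815, chromosome 3L, 7733250 to 7743041, minus strand), a relative of the pheromone co-receptor *Snmp1*, had 1.64, 1.60 and 1.18 TPM in the mutant-labelled libraries, against 1.47, 1.74 and 1.84 TPM in the control-labelled ones. Its log2 fold change was -0.12 (SE 0.15, limma adjusted p = 0.818), and the 95% confidence interval of the fold of TPM + 1 reached from 0.730 to 1.16. *CG40006* (FBgn0058006), which spans chromosome 2L from 22622417 to 22756349, was at 1.89, 2.86 and 2.69 TPM in the mutant-labelled libraries, against 1.61, 2.45 and 2.14 TPM in the control-labelled ones. Its log2 fold change was 0.18 (SE 0.18, limma adjusted p = 0.818), and the 95% confidence interval of the log2 fold change reached from -0.22 to 0.58. Both genes overlapped between the labels. At these low levels the log2(TPM + 1) scale understates changes of TPM, and so do the intervals. With a pseudocount of 0.1 the log2 fold changes were -0.19 for *Snmp2* and 0.25 for *CG40006*. *CG40006* was above *Snmp2* in 6 of 6 libraries, although their ranges over all libraries overlapped.

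**Figure D2:**
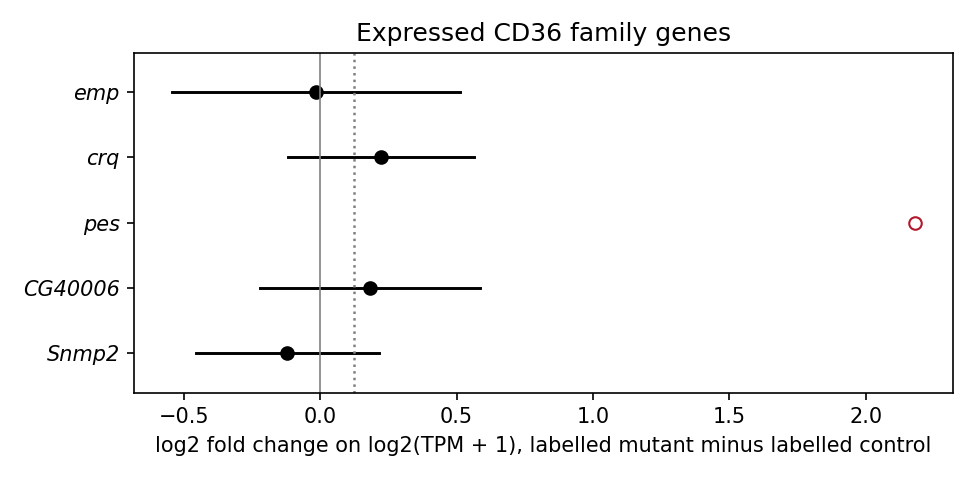
Log2 fold change on the log2(TPM + 1) scale, labelled mutant minus labelled control, of the 5 tested family genes, with 95% confidence intervals from limma as lines and the dotted line at the median of all tested genes, 0.13. The intervals of *emp*, *crq*, *CG40006* and *Snmp2* span 0, and the open circle of *pes* at 2.18 has no interval because the gene was chosen for this difference.

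The other 5 receptors were too low to be tested. *CG3829* stood apart from the rest of them, with 0.68, 0.71 and 0.48 TPM in the mutant-labelled libraries and 0.55, 0.66 and 0.68 TPM in the control-labelled ones. These values overlapped, and *CG3829* was above the next gene in the order, *CG7227*, in 6 of 6 libraries. *santa-maria*, which serves carotenoid uptake, had 0.03, 0.08 and 0.01 TPM in the mutant-labelled libraries, against 0.04, 0.08 and 0.09 TPM in the control-labelled ones. *ninaD*, the carotenoid receptor of the gut, *Snmp1* and *CG10345* did not exceed 0.05 TPM in any library and were listed at 0 in at least 3 of the 6. Of the other family genes, *CG2736* was listed at 0 to 0.11 TPM and *dsb*, a receptor of the phagocytic route, at 0.01 to 0.07 TPM. *CG31741* was listed at 0 in every library. From *CG7227* down, no gene was above the next in the order of mean levels in all 6 libraries, so this part of the order is not resolved.

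Part of the family lies in small groups of neighbours along the chromosomes. On chromosome 2R, *CG2736*, *emp* and *CG3829* follow each other within 24973431 to 24990489. *emp* and *CG3829* are read from opposite strands and share 27 exonic bases at their 5′ ends, so reads of that stretch are uncertain. *emp* was listed at 77.47 TPM or more in every library, while *CG3829* did not exceed 0.71 TPM. *ninaD* and *CG31741* stand 647 bases apart on the plus strand of chromosome 2L and were both close to 0. The last group is *pes* and *CG7227*, both on the minus strand with 203 bases between them.

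*CG7227* (FBgn0031970, 7994388 to 7998151), the family gene upstream of *pes*, had 0.11, 0.09 and 0.08 TPM in the mutant-labelled libraries, against 0.05, 0.04 and 0.05 TPM in the control-labelled ones. The antisense RNA *CR44996* (FBgn0266331, 7994798 to 7996494), which lies within *CG7227* on the plus strand, had 0.20, 0.25 and 0.10 TPM in the mutant-labelled libraries, against 0.02, 0 and 0 TPM in the control-labelled ones. In both genes the groups did not overlap, with the libraries labelled mutant higher. Among the 4445 genes that were below the limit for testing but above 0 in at least 1 library, 207 (4.66%) had this pattern. The values of both genes are a small part of those of *pes*. *CR44996* shares 1501 bases of its exons with *CG7227*, and the counting is not stated to have used the strand, so the reads of these 2 genes cannot be told apart.

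The genes on both sides of this stretch overlapped between the groups of libraries. *CG7231*, whose annotation ends at the base next to the 3′ end of *pes*, was at 8.53 ± 2.18 TPM in the mutant-labelled libraries and at 8.27 ± 0.735 TPM in the control-labelled ones (SD, n = 3 each). Its log2 fold change was 0.02 (SE 0.19, limma adjusted p = 0.972). *Sirup*, the next gene on the other side of *CG7227*, was at 50.24, 42.90 and 46.10 TPM in the mutant-labelled libraries, against 78.67, 49.19 and 50.32 TPM in the control-labelled ones. Its log2 fold change was -0.32 (SE 0.20, limma adjusted p = 0.818). Among the genes within 50 kb of *pes*, 15 others were analysed here, and 12 of them were tested. None of the 12 was called, none had an unadjusted p under 0.05 and none was without overlap between the labels. Their log2 fold changes ranged from -0.32 for *Sirup* to 0.31 for *Cka*, with a median of 0.02 beside 0.13 for all tested genes. The tested neighbours *Snoo*, *Wwox*, *Spn28Dc*, *CG12560*, *Tg*, *CG7367*, *baf*, *CCDC53* and *RpL36A* lay between these bounds.

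**Figure D3:**
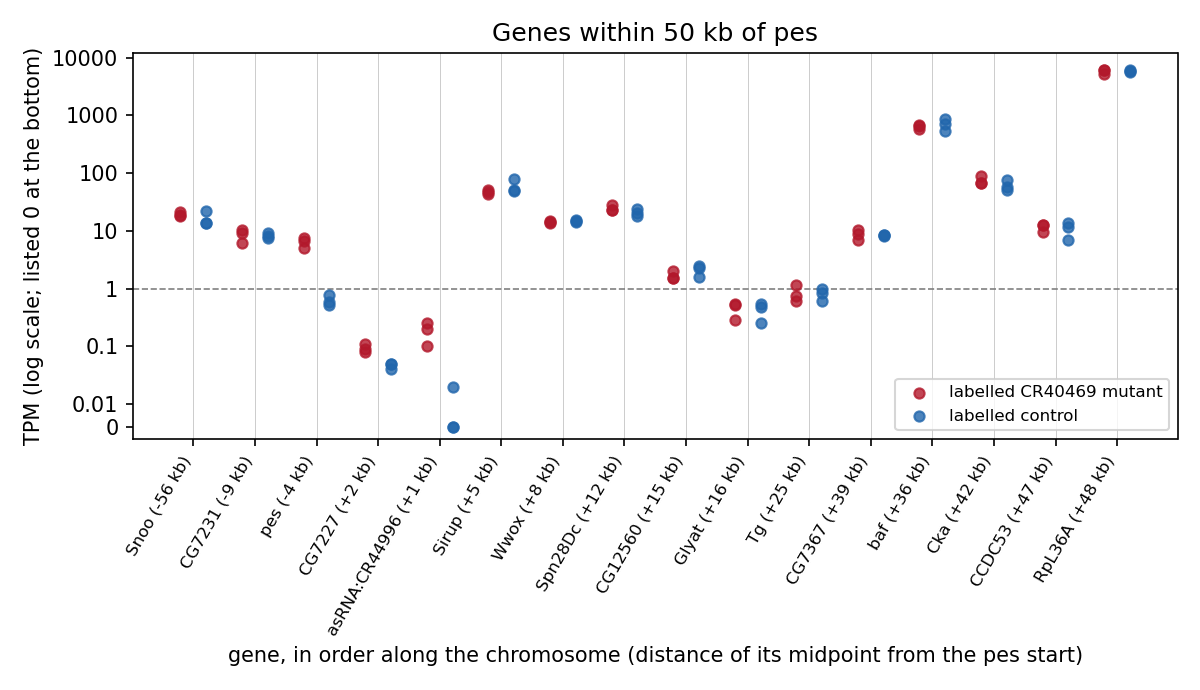
TPM of *pes* and 15 genes within 50 kb of it, on a log scale in order of their start along the chromosome, with 1 point per library (left of each line, labelled *CR40469* mutant; right, labelled control). The number beside a name is the distance of the gene's midpoint from the 5′ end of *pes*, negative toward lower coordinates, and the dashed line is at 1 TPM. *pes*, *CG7227* and *CR44996* are the 3 of these genes in which the labels do not overlap.

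Several markers of trachea and fat body, and the neuronal marker *elav*, did not overlap between the labels either, although none was called. All 5 tracheal markers were tested, and their summed level was 451.9 to 591.6 TPM in the mutant-labelled libraries and 340.5 to 407.9 TPM in the control-labelled ones. *btl*, *verm* and *Gasp* were higher in every library labelled mutant, a pattern that 636 of all tested genes (7.90%) had, while *trh* and *serp* overlapped between the labels. *Gasp*, a chitin-binding protein, was at 120.98, 73.05 and 74.78 TPM in the mutant-labelled libraries and at 63.38, 41.84 and 38.79 TPM in the control-labelled ones (log2 fold change 0.88, limma adjusted p = 0.516). The chitin deacetylase gene *verm* had a log2 fold change of 0.36 (limma adjusted p = 0.818). *verm* and *Gasp* were the 2 of the 5 with an unadjusted p under 0.05 in limma, both higher, beside 3.03% of all tested genes. The 7 fat body markers summed to at most 4.72 TPM in the mutant-labelled libraries and at least 6.05 TPM in the control-labelled ones, and 4 of them (*Fbp1*, *Fbp2*, *Lsp1alpha* and *Lsp2*) were lower in every library labelled mutant. Of these 4, *Lsp1alpha* was too low to be tested. The same pattern was found in 206 of all tested genes (2.56%) and in 141 of the 4445 genes below the limit for testing and above 0 in at least 1 library (3.17%). *Lsp1beta*, *Lsp1gamma* and *apolpp* overlapped between the labels, and *Lsp1gamma* had a log2 fold change of 0.13. *Fbp2* was at 0.52, 0.88 and 0.95 TPM in the mutant-labelled libraries and at 3.02, 2.96 and 2.06 TPM in the control-labelled ones (log2 fold change -1.04, limma adjusted p = 0.0747). Without the libraries that stood apart *Fbp2* was called (log2 fold change -0.87, limma adjusted p = 0.0168). That fit, chosen after the data were seen, called 168 of 7928 tested genes. Over the other alternatives the limma adjusted p of *Fbp2* was between 0.0620 and 0.341. *Lsp2*, a storage protein gene, had a log2 fold change of -0.74 (limma adjusted p = 0.818). *Fbp2* and *Lsp2* were the 2 of 5 tested fat body markers with an unadjusted p under 0.05 in limma. Both were lower, beside 1.79% of all tested genes. The defining tracheal gene *trh* was present at 7.85 to 14.44 TPM, and no marker of trachea or fat body was listed at 0 in all libraries. *elav* averaged 10.02 ± 1.71 TPM in the mutant-labelled libraries and 7.42 ± 1.29 TPM in the control-labelled ones (SD, n = 3 each), with a lowest mutant-labelled value of 9.02 TPM and a highest control-labelled value of 8.87 TPM. It was the 1 tested gene of 4 neuronal and glial markers (log2 fold change 0.39, limma adjusted p = 0.818). *nSyb*, *Syt1* and *repo* were too low to be tested and overlapped between the labels. The mean of *nSyb* went the other way, at 0.193 TPM in the mutant-labelled libraries and 0.243 TPM in the control-labelled ones. The 7 muscle and 6 salivary gland markers all overlapped between the labels, and none was called. The part of these tissues in the difference of *pes* was not tested. In bulk samples, fewer cells of a type and less RNA per cell cannot be told apart.

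Because *crq* is a macrophage receptor, it was set beside the haemocyte markers. *Hml*, the haemocyte marker haemolectin, had 0.85, 0.14 and 0.22 TPM in the mutant-labelled libraries, against 0.45, 0.06 and 0.28 TPM in the control-labelled ones. *crq* was between 33.2 and 360 times as high as *Hml* within a library, a ratio that rests on *Hml* values as low as 0.06 TPM. Other markers came closer to *crq*, such as *PPO2* in mutant replicate 1, at 5.69 TPM beside 28.21 TPM of *crq*. The 10 haemocyte markers summed to 20.1, 5.10 and 8.41 TPM in the mutant-labelled libraries, and to 14.4, 2.97 and 11.5 TPM in the control-labelled ones. This sum varied 6.77-fold between the lowest and the highest library, whereas *crq* varied 1.42-fold. Single markers varied unequally, from 2.31-fold for *gcm* to 56.9-fold for *PPO2* and 78.2-fold for *PPO1*. *PPO1* and *PPO2* were the highest markers in mutant replicate 1 (4.69 and 5.69 TPM) and were at 0.16 and 0.23 TPM in control replicate 2. The spread of the sum therefore rests in part on *PPO1* and *PPO2*, but not on them alone. *Hml*, *Sr-CI*, *NimC1* and *eater* varied 14.2-fold, 9.55-fold, 9.25-fold and 5.30-fold. The library with the highest *crq*, mutant replicate 2, had the second lowest sum of the markers, and the library with the lowest *crq*, control replicate 2, had the lowest sum. The part of haemocytes in the level of *crq* was not tested. None of the 10 markers was listed at 0 in all libraries, and none separated the labels.

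**Figure D4:**
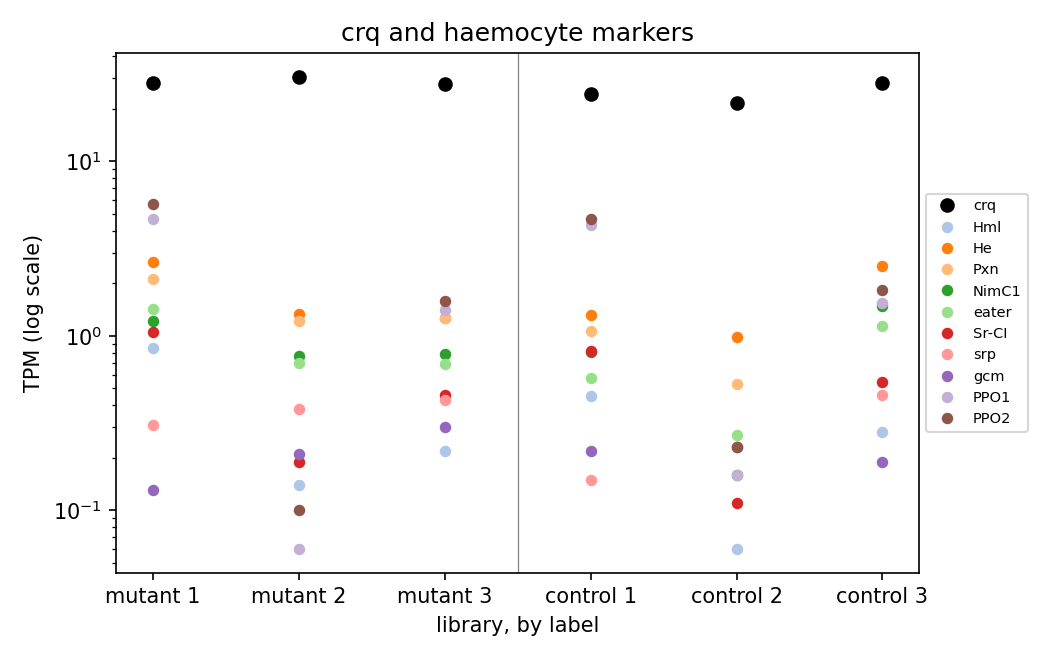
TPM of *crq* (black) and of 10 haemocyte markers (coloured) in each library on a log scale, with the libraries labelled mutant left of the line and those labelled control right of it. *crq* stays between 21.60 and 30.59 TPM and above all markers, of which the highest value is 5.69 TPM for *PPO2*.

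None of the wider machinery of engulfment was called. Of 21 genes, 18 were tested, with log2 fold changes from -0.20 to 0.32 and a median of 0.14 beside 0.13 for all tested genes. Of these 18 log2 fold changes 17 were above 0, as were 6027 of the 8051 over all tested genes. The engulfment receptor *drpr* was at 43.14, 31.84 and 31.37 TPM in the mutant-labelled libraries and at 22.82, 34.67 and 27.39 TPM in the control-labelled ones (log2 fold change 0.32, limma adjusted p = 0.818). The highest members were *CaBP1*, at 376 ± 20.5 TPM in the mutant-labelled libraries and 342 ± 54.6 TPM in the control-labelled ones, and the adaptor *Crk*, at 271 ± 28.6 TPM under the mutant label and 315 ± 63.4 TPM under the control label (SD, n = 3 each). None of the 18 genes had an unadjusted p under 0.05. *NimC4*, a receptor for apoptotic cells in embryonic macrophages and glia, was listed at 0 in every library.

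For lipid uptake and storage, 11 of 14 genes were tested, and none was called or had an unadjusted p under 0.05. Their log2 fold changes had a median of 0.17 and ranged from -0.31 for *Npc2a* to 0.56 for *mgl*. *Apoltp*, too low to be tested, had 0.19, 0.16 and 0.10 TPM in the mutant-labelled libraries, against 0.02, 0.06 and 0.03 TPM in the control-labelled ones. It was higher in every library labelled mutant, as were 4.66% of the genes below the limit for testing and above 0 in at least 1 library. The highest members were the lipid droplet gene *Lsd-2*, at 164 ± 23.0 TPM in the mutant-labelled libraries and 147 ± 49.1 TPM in the control-labelled ones, and the lipophorin receptor *LpR2*, at 57.0 ± 7.49 TPM under the mutant label and 55.3 ± 15.1 TPM under the control label (SD, n = 3 each). Of 6 lysosomal genes, 5 were tested, none was called and none had an unadjusted p under 0.05. *Lamp1* and *CtsL1* were the highest of them. *Gba1b*, a glucocerebrosidase, was at 1.75, 1.61 and 1.66 TPM in the mutant-labelled libraries and at 1.36, 1.54 and 1.18 TPM in the control-labelled ones. It was the 1 of the 5 that was higher in every library labelled mutant, beside 7.90% of all tested genes (log2 fold change 0.18, limma adjusted p = 0.818).

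Of 6 genes of carotenoid and retinoid use, only *pinta*, which encodes a retinoid-binding protein, was high enough to be tested. It had 12.83, 10.36 and 9.71 TPM in the mutant-labelled libraries, against 23.89, 14.15 and 23.03 TPM in the control-labelled ones. All 3 libraries labelled mutant were below all 3 labelled control, as in the 2.56% of all tested genes given above. The log2 fold change was -0.81 (SE 0.22, limma adjusted p = 0.442), so *pinta* was not called. Its unadjusted p in limma was 0.00598, and 1.79% of all tested genes were lower with an unadjusted p under 0.05. Without the libraries that stood apart, *pinta* passed both thresholds (log2 fold change -1.15, limma adjusted p = 0.00152). That fit, chosen after the data were seen, called 168 of 7928 tested genes. It left out the lowest control-labelled value of *pinta*, 14.15 TPM, and the highest mutant-labelled value, 12.83 TPM. Over the other alternatives the limma adjusted p was 0.115 or more. *ninaB*, the enzyme that cleaves carotenoids, was listed at 0 in every library, and *Pdh*, a retinol dehydrogenase gene, did not exceed 0.04 TPM. All 5 genes of pheromone detection, among them the co-receptor gene *Orco*, stayed at or below 0.10 TPM, as *Snmp1* did. The highest of them were the pheromone-binding protein gene *lush*, at up to 0.10 TPM, and the receptor gene *Or67d*, at up to 0.03 TPM.

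Of the 8051 tested genes, the 5 whose log2(TPM + 1) over the 6 libraries correlated best with that of *pes* were *Cyp6a17* (Pearson's r = 0.996), *Crg-1* (0.990), *CG43672* (0.987), *CG11843* (0.986) and *CG1227* (0.982). They lie on chromosomes 2R, X, X, 3R and 3R. All 5 were higher in every library labelled mutant, and the correlations include this difference between the labels and rest on the same 6 libraries. *Cyp6a17*, a cytochrome P450 gene, was the closest of the 5 to *pes* in level, at 7.32, 6.17 and 5.63 TPM in the mutant-labelled libraries, against 0, 0.08 and 0 TPM in the control-labelled ones. As for *pes*, mutant replicate 1 was the highest and replicate 3 the lowest of the libraries labelled mutant. This shared order is part of the correlation by which *Cyp6a17* was picked and adds nothing to it.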

How the data were processed

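Libraries of wing discs were made from poly-A RNA. The authors aligned the reads to dm6 with STAR 2.4.0j and quantified genes of FlyBase with RSEM 1.2.21, and deposited TPM per gene and library, written to 2 decimals. TPM do not carry depth, so neither counting intervals nor a count test could be used. Mapped read numbers that the study gives were not used here. Positions came from Ensembl release 115 (dm6 coordinates), which held 16402 of the 16455 identifiers.

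Genes that reached 1 TPM in any library were fitted on log2(TPM + 1) with the genotype label as the only term (lmFit and eBayes of limma, version 3.58.1, R version 4.3.3). A call needed an adjusted p (Benjamini-Hochberg) under 0.05 and a fold change over 1.7. Alternatives were another pseudocount, filter, scaling, trend, threshold, the replicate number as a block, and libraries left out.

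The members, gene lists and tests were chosen with earlier results of these data known. Named genes were *CR40469*, *rpr*, all family genes, tested genes within 50 kb of *pes*, the 5 genes most like *pes*, and list members with an unadjusted p under 0.05 or the highest level. Others (*CR44996*, *drpr*, *Gba1b*, *NimC4*, *ninaB*, *Orco*, *mgl*, *Npc2a*, *Apoltp*, markers and genes listed at 0) were chosen after their values were seen. *CG7422* and *CG12789*, on the list of other family genes, are older names of *Snmp2* and *santa-maria* and were not counted again. A gene near *pes* is not reported here. Protein sequences were not used here, so identity between members was not computed. Figures were drawn with matplotlib 3.10.9.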

Additional observations from a re-analysis of the deposited data

How the results depend on the processing

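The log2 fold change of *pes* was 3.17 with a pseudocount of 0.1 and 2.61 with 0.5, and 2.08 to 2.32 over the fits that each left out 1 library. Called receptors numbered 1 in all alternatives except without a filter on low values, where there were 0. The 1 was *pes*, which had been chosen for this difference, so these counts carry no weight as a result. Called genes over the whole table numbered 2 without a filter, 31 with the replicate number as a block, and 6 (without control replicate 1) to 35 (without mutant replicate 1) with 1 library left out. The count was also 11 without mutant replicate 3 and 9 without control replicate 3. An alternative chosen after seeing the data left out both mutant replicate 1 and control replicate 2. It gave 1 called gene, *pinta*, over the lists of related genes, and 168 called genes among 7928 tested, in place of 18 among 8051. The cause was not tested. The log2 fold change of *emp*, close to 0, changed sign in 3 fits that left out 1 library and ranged from -0.24 to 0.14 over them. The log2 fold changes of *crq*, *Snmp2*, *CG40006*, *pinta*, *Gasp*, *verm* and *Fbp2* kept their direction in all alternatives run, and the block changed no call of a family gene. That of *pes* kept its direction too, but its labels do not overlap, so leaving out libraries could not reverse it. Deviations from the label means correlated at -0.03, -0.35 and 0.16 between samples of equal replicate number. With 3 libraries per label and 2 that stood apart, these values cannot decide whether the numbers pair the libraries. The 5 genes most like *pes* were recomputed under other pseudocounts only, and 4 of them were shared at 0.1 and 5 at 0.5. Differences under 1 TPM rest on values written to 2 decimals, and TPM do not carry the depth behind them.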
